A study of Mus musculus with 20 samples.

Results

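Pmepa1 and 9 genes of the TGF-β pathway were followed through the RNA-seq libraries of mouse T cells given IL-2 or its variant IL-2-REH. The members were Pmepa1, the ligand gene Tgfb1, the receptor genes Tgfbr1 and Tgfbr2, the signal carriers Smad2 and Smad3, and the inhibitors Smad7, Ski, Skil and Tgif1. All 10 were found, of 23992 gene symbols in all. Pmepa1 was chosen by its rise in the CD8+ libraries 90 min after either cytokine, with those values known. The other 9 were added as known genes of the pathway, also with earlier results of these data known. The CD8+ comparisons that use those libraries are therefore given as a description and support nothing.

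Regulatory T cells (Tregs) were sorted by FACS for GFP after CD4+ isolation from spleen and lymph node of B6-Foxp3EGFP mice, in which GFP marks cells that express Foxp3. CD8+ T cells were isolated with a kit from C57BL/6J mice, although the strain label of the libraries reads C57BL/6N, and no age is given. Cells of each type received 200 nM IL-2 or 200 nM IL-2-REH ex vivo for 90 min or 4 hr, or were taken without cytokine, which gives 5 groups per cell type. The titles place the unstimulated libraries at 0 hr, and no library without cytokine is labelled 90 min or 4 hr. In each comparison with unstimulated cells, the cytokine therefore cannot be told apart from the time in culture. Tregs had 3 libraries per group (15 in all) and CD8+ T cells had 1 (5 in all), so that no CD8+ difference could be set against replicate error. Nothing in the labels says that the 3 libraries of a Treg group came from separate animals or cultures, and p-values here measure only the spread between these libraries.

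TGF-β is made as a latent precursor and acts, once released, through a complex of a type II and a type I receptor. The type I receptor phosphorylates SMAD2 and SMAD3, which join SMAD4 and act on genes in the nucleus. Cells check the signal at several points, through SMAD7 at the receptor, PMEPA1 on the receptor-activated SMADs, and SKI, SKIL and TGIF1 as corepressors at the DNA, and several of these inhibitors are themselves induced by TGF-β. In T cells the pathway is known for the induction and upkeep of Tregs and for restraint of effector cells. IL-2, in contrast, acts through its own receptor and STAT5.

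The libraries held 20201392 to 63903764 reads on genes in Tregs and 38201667 to 45189835 in CD8+ T cells. Markers matched the labelled cell types. Foxp3, the lineage factor of Tregs, lay between 65.2 and 252 RPKM (reads scaled to exon length and sequencing depth) in Tregs and at or below 1.0 RPKM in CD8+ T cells. Cd8a lay between 103 and 256 RPKM in CD8+ T cells and did not exceed 1.84 RPKM in Tregs. One library stood apart. Unstimulated Treg replicate 1 correlated across genes at a mean r of 0.927 with its own group and of 0.968 with the Treg libraries stimulated for 90 min, whereas the other unstimulated libraries correlated at 0.956 and 0.957 with their own group. The summed RPKM of 6 macrophage markers also moved with the groups. Within each replicate it was highest without cytokine, at 14.6 against 7.61 to 13.04 in replicate 1, at 76.6 against 27.3 to 41.3 in replicate 2 and at 58.1 against 19.8 to 33.5 in replicate 3, so that all 5 libraries of replicate 1 were low. The CD8+ libraries had 35.5 without cytokine and 13.2 to 19.9 with it. NK cell markers did not exceed 0.29 RPKM in replicate 1 and were highest without cytokine in replicates 2 and 3 (4.81 and 2.77 RPKM). Erythroid markers summed to 33.4 to 61.4 RPKM and B cell markers to 3.12 to 9.25 RPKM in replicate 3, against at most 5.12 and 1.05 RPKM in the other Treg libraries. Platelet markers, from cells rich in TGF-β1, summed to at most 4.2 RPKM in Tregs and 6.34 RPKM in CD8+ T cells. The part of this library and of these markers in the results was not tested, and each result against unstimulated Tregs is given with and without replicate 1. In bulk libraries, fewer cells of a type and less RNA per cell cannot be told apart.

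Pmepa1 lies on the minus strand of chromosome 2 (GRCm38, chr2:173224458-173276731), and its product keeps receptor-activated SMADs from the type I receptor. In unstimulated Tregs, Pmepa1 was measured at 17.9, 4.55 and 2.98 RPKM in replicates 1, 2 and 3. Replicate 1 was as high as stimulated cells, and the other 2 were lower than every stimulated Treg library. After 90 min with IL-2 the values were 16.03, 24.4 and 24.3 RPKM, and with IL-2-REH 14.7, 24.2 and 26.9 RPKM. After 4 hr they were 6.32, 11.6 and 8.31 RPKM for IL-2 and 6.74, 10.1 and 13.5 RPKM for IL-2-REH. Every Treg library at 90 min lay above every one at 4 hr, for both cytokines. The 2 cytokines overlapped within each time.

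Over all 15 Treg libraries, none of the Pmepa1 differences passed the test (edgeR quasi-likelihood, Benjamini-Hochberg over 15009 genes). The log2 fold change against unstimulated Tregs at 90 min was 1.43 ± 0.59 (SE, adjusted p = 0.307) with IL-2 and 1.46 ± 0.59 (adjusted p = 0.404) with IL-2-REH. Without unstimulated replicate 1, both differences passed, at a log2 fold change of 2.80 ± 0.44 (adjusted p = 0.00172) and of 2.82 ± 0.44 (adjusted p = 0.00175). Neither passed when unstimulated replicate 2 or 3 was left out instead. At 4 hr IL-2 gave 0.01 ± 0.58 (adjusted p = 0.995) and IL-2-REH 0.18 ± 0.58 (adjusted p = 0.93). Without unstimulated replicate 1 they were 1.37 ± 0.41 (adjusted p = 0.057) and 1.53 ± 0.41 (adjusted p = 0.0433), so that the IL-2-REH difference alone passed. With the replicate number as a block and without that library, a fit chosen after the data were seen, both passed (1.62, adjusted p = 0.000446, and 1.76, adjusted p = 0.000358). The largest log2 ratio of Pmepa1 between 2 Treg libraries of a group was 2.25 with replicate 1 and 0.91 without it.

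In CD8+ T cells, Pmepa1 was measured at 2.08 RPKM without cytokine, and at 24.7 RPKM for IL-2 and 19.2 RPKM for IL-2-REH after 90 min. By 4 hr it stood at 7.03 RPKM for IL-2 and 3.82 RPKM for IL-2-REH. These values rest on 580 to 7770 reads. The log2 ratio of RPKM + 1 to the unstimulated library was 3.06 and 2.71 at 90 min and 1.38 and 0.64 at 4 hr, for IL-2 and IL-2-REH respectively. The unstimulated and the 90 min CD8+ libraries thus spanned nearly the range of the Tregs (2.98 to 26.9 RPKM).

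**Figure D1:**
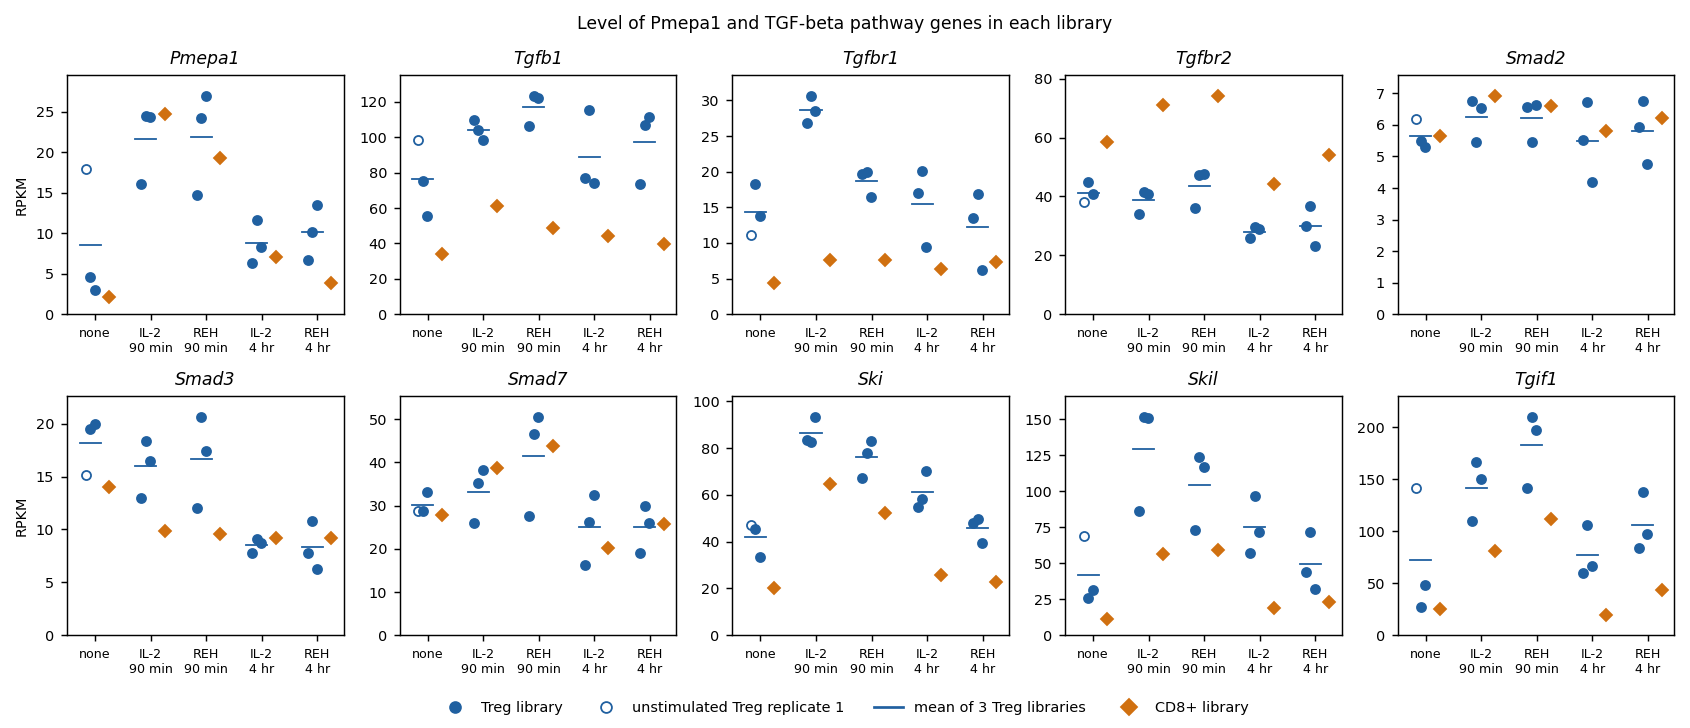
RPKM (y axis, from 0, its own scale in each panel) of the 10 genes in each library, by cytokine and time (x axis, REH is IL-2-REH). Blue circles are Treg libraries with a line at the mean of 3, the open circle is unstimulated replicate 1, and orange diamonds are the single CD8+ libraries. Pmepa1, Skil and Tgif1 are high at 90 min and lower at 4 hr, and the open circle lies well above the other 2 unstimulated Treg libraries for these genes.

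Tgfb1, the gene of the ligand TGF-β1 (chr7:25687002-25705077, plus strand), was at 98.5, 75.4 and 55.5 RPKM in unstimulated Tregs. It reached 109.8, 104 and 98.4 RPKM after 90 min for IL-2 and 107, 123 and 122 RPKM for IL-2-REH. The IL-2-REH libraries all lay above the unstimulated ones, while the lowest IL-2 library and unstimulated replicate 1 were nearly level. At 4 hr the values spread widely, 76.8, 116 and 73.9 RPKM for IL-2 and 73.9, 107 and 111 RPKM for IL-2-REH, and overlapped with the unstimulated ones. In edgeR the 90 min log2 fold change was 0.56 ± 0.26 (adjusted p = 0.357) with IL-2 and 0.75 ± 0.26 (adjusted p = 0.393) with IL-2-REH. Without unstimulated replicate 1, Tgfb1 rose by 0.91 ± 0.23 (adjusted p = 0.0227) and 1.09 ± 0.23 (adjusted p = 0.0101). At 4 hr, the log2 fold changes of 0.25 and 0.33 with all libraries, and of 0.58 (adjusted p = 0.133) and 0.67 (adjusted p = 0.102) without replicate 1, did not pass. With the block and without replicate 1 they passed (0.70, adjusted p = 0.0145, and 0.77, adjusted p = 0.0102).

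Tgfbr1 (chr4:47353222-47414926, plus strand), the type I receptor that phosphorylates SMAD2 and SMAD3, was at 11.2, 18.2 and 13.8 RPKM in unstimulated Tregs and at 26.9, 30.6 and 28.5 RPKM after 90 min with IL-2. The IL-2 libraries were above all 3 unstimulated ones and also above the IL-2-REH ones of that time, which were at 19.7, 20.02 and 16.4 RPKM. The log2 fold change with IL-2 at 90 min was 1.17 ± 0.29 (adjusted p = 0.0951). It passed with the replicate number as a block (1.18, adjusted p = 0.037) and without unstimulated replicate 1 (1.09, adjusted p = 0.0494). With IL-2-REH at 90 min it was 0.54 ± 0.29 (adjusted p = 0.486), and 0.46 without that library (adjusted p = 0.4). At 4 hr the groups overlapped with the unstimulated one, at 16.96, 20.04 and 9.43 RPKM for IL-2 and 13.5, 16.9 and 6.22 RPKM for IL-2-REH. Neither difference passed (edgeR adjusted p = 0.794 and 0.779, and 0.881 and 0.556 without that library).

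Tgfbr2 (chr9:116087695-116175363, minus strand), the type II receptor that binds the ligand first, was at similar levels without cytokine and at 90 min. It was measured at 38.2, 44.8 and 40.9 RPKM in unstimulated Tregs, 33.9, 41.4 and 40.8 RPKM for IL-2 and 36.2, 47.1 and 47.7 RPKM for IL-2-REH. At 4 hr all 6 stimulated Treg libraries lay below all unstimulated ones, at 25.7, 29.6 and 28.96 RPKM for IL-2 and 30.05, 36.6 and 23.2 RPKM for IL-2-REH, but the differences did not pass (edgeR adjusted p = 0.282 and 0.384, and 0.252 and 0.284 without unstimulated replicate 1). Of the 10 genes, Tgfbr2 had the 1 case in which CD8+ T cells were above Tregs in every condition, with 58.5 RPKM unstimulated, 71.0 and 74.0 RPKM at 90 min and 44.1 and 54.1 RPKM at 4 hr.

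Smad2, a receptor-activated SMAD on chromosome 18, was even across the experiment, between 4.19 and 6.77 RPKM in the 15 Treg libraries and between 5.64 and 6.91 RPKM in the 5 CD8+ libraries. No Treg comparison of Smad2 passed in edgeR, with or without unstimulated replicate 1.

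Smad3 (chr9:63646766-63757994, minus strand), the other receptor-activated SMAD, was lower at 4 hr. It was at 15.1, 19.5 and 19.96 RPKM in unstimulated Tregs, at 13.01, 18.4 and 16.5 RPKM for IL-2 and 12.01, 20.6 and 17.4 RPKM for IL-2-REH after 90 min, and at 7.8, 9.12 and 8.7 RPKM and 7.76, 10.8 and 6.3 RPKM after 4 hr. All 6 libraries of 4 hr were below every other Treg library. The log2 fold change against unstimulated Tregs at 4 hr was -1.01 ± 0.27 (adjusted p = 0.0653) with IL-2 and -1.14 ± 0.27 (adjusted p = 0.0922) with IL-2-REH. Both passed with the replicate number as a block (-1.01, adjusted p = 0.0185, and -1.14, adjusted p = 0.018) and without unstimulated replicate 1 (-1.06, adjusted p = 0.041, and -1.19, adjusted p = 0.0297). In CD8+ T cells Smad3 was at 14.04 RPKM without cytokine and between 9.16 and 9.81 RPKM in the 4 stimulated libraries, so that the lower level there was already seen at 90 min.

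Smad7, the inhibitory SMAD that brings ubiquitin ligases to the receptor and lies on chromosome 18, was at 28.8, 28.8 and 33.1 RPKM in unstimulated Tregs. It was at 25.9, 35.2 and 38.1 RPKM for IL-2 and 27.6, 46.6 and 50.4 RPKM for IL-2-REH after 90 min. In both stimulated groups replicate 1 was the lowest and was below every unstimulated library, while replicates 2 and 3 were above. None of its Treg differences passed with all libraries or without unstimulated replicate 1 (edgeR). With the block and without that library, Smad7 rose at 90 min, by 0.57 ± 0.18 with IL-2 (adjusted p = 0.033) and by 0.87 ± 0.18 with IL-2-REH (adjusted p = 0.00392). In CD8+ T cells Smad7 was at 27.8 RPKM without cytokine, 38.8 and 43.7 RPKM at 90 min and 20.1 and 25.8 RPKM at 4 hr.

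Ski (chr4:155154075-155222535, minus strand), a corepressor that binds SMAD2, SMAD3 and SMAD4, was the member that rose in Tregs in edgeR with all libraries and no block. It was at 47.3, 45.6 and 33.4 RPKM without cytokine and at 83.5, 82.5 and 93.1 RPKM after 90 min with IL-2, with no overlap. The log2 fold change was 1.18 ± 0.24 (edgeR adjusted p = 0.0332). This call was lost when only the 2 groups were fitted (adjusted p = 0.154) and without unstimulated replicate 2 (0.182) or 3 (0.175), and it held without replicate 1 (1.38, adjusted p = 0.0039). IL-2-REH gave 67.1, 78.1 and 83.1 RPKM at 90 min, also above all unstimulated libraries. Its log2 fold change of 1.0 ± 0.24 had an adjusted p of 0.263, and of 0.00835 without replicate 1 (1.20). After 4 hr Ski was at 54.8, 58.4 and 70.02 RPKM for IL-2 and 48.1, 49.6 and 39.4 RPKM for IL-2-REH. The IL-2 values were above the unstimulated ones (log2 fold change 0.61, adjusted p = 0.196), and the IL-2-REH values overlapped with them (0.11, adjusted p = 0.888). Without replicate 1 these were 0.80 (adjusted p = 0.0599) and 0.30 (adjusted p = 0.459), and with the block as well IL-2 passed (0.86, adjusted p = 0.0145) and IL-2-REH did not (0.38, adjusted p = 0.231).

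Skil (chr3:31095058-31122923, plus strand), the gene of the related corepressor SnoN, was at 68.8, 25.96 and 31.3 RPKM in unstimulated Tregs. It was at 86.02, 151 and 151 RPKM for IL-2 and 73.1, 124 and 117 RPKM for IL-2-REH after 90 min, and at 57.4, 96.6 and 71.8 RPKM and 43.8, 71.5 and 32.4 RPKM after 4 hr. Unstimulated replicate 1 again lay high, at over the level of replicates 2 and 3 together, yet still below every library of 90 min. At 90 min its log2 fold change was 1.74 ± 0.46 (adjusted p = 0.112) with IL-2 and 1.42 ± 0.45 (adjusted p = 0.389) with IL-2-REH. Without replicate 1 both passed, at 2.43 ± 0.44 (adjusted p = 0.00378) and 2.11 ± 0.43 (adjusted p = 0.00779). With all libraries the log2 fold changes at 4 hr were 0.84 and 0.14, and neither passed. Without replicate 1, IL-2 passed (1.52, adjusted p = 0.0413) and IL-2-REH did not (0.82, adjusted p = 0.235). With the block and without replicate 1 both passed (1.72, adjusted p = 0.00262, and 1.06, adjusted p = 0.034).

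Tgif1 (chr17:70844205-70853532, minus strand), a homeodomain corepressor of SMAD2 and SMAD3, also depended on that library. In unstimulated Tregs it was at 141, 27.5 and 48.2 RPKM, so that replicate 1 was at the level of stimulated cells. It was at 109.6, 166.7 and 149.9 RPKM for IL-2 and 141, 209 and 197 RPKM for IL-2-REH after 90 min. At 4 hr it was at 59.4, 106 and 66.2 RPKM and 84.05, 137 and 97.3 RPKM. Log2 fold changes at 90 min were 1.05 ± 0.51 (adjusted p = 0.382) and 1.41 ± 0.51 (adjusted p = 0.396) with all libraries. Without replicate 1 they were 2.12 ± 0.39 (adjusted p = 0.00434) and 2.48 ± 0.40 (adjusted p = 0.00206). At 4 hr they were 0.05 and 0.45, and without replicate 1 1.12 (adjusted p = 0.0829) and 1.52 (adjusted p = 0.032). With the block as well, the IL-2 difference passed too (1.34, adjusted p = 0.00549).

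Promoter windows of Ski and Tgif1 are shown, since IL-2 acts through STAT5 and TGF-β through SMADs, and the letters of both sites can be looked for there. The RefSeq promoter windows of GRCm38.p6 used here cover 6 of the 10 genes, and no window of Pmepa1, Skil, Smad2 or Smad7 was searched. The 11 windows, 5 of them of Tgif1, run from 250 bases before to 50 after a transcription start. Each was searched on both strands for TTCNNNGAA, the letters of a STAT5 site, and for CAGAC, a SMAD-binding element, which do not overlap each other in the windows shown. Capitals mark a match. The windows are given 5′ to 3′ on the minus strand.
Ski, chr4:155222486-155222785: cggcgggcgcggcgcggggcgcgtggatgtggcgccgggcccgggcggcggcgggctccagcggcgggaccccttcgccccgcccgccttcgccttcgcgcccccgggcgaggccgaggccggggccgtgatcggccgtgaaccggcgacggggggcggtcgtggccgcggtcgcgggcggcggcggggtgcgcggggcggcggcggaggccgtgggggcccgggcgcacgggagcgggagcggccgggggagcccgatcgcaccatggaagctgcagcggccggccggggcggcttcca
Tgif1, upstream start, chr17:70853483-70853782: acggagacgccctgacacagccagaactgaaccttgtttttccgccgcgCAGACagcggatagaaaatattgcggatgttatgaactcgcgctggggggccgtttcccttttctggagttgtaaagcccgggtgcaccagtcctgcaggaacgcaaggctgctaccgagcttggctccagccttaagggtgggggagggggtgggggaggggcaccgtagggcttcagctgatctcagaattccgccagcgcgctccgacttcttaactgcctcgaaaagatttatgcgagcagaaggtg
Tgif1, downstream start, chr17:70846728-70847027: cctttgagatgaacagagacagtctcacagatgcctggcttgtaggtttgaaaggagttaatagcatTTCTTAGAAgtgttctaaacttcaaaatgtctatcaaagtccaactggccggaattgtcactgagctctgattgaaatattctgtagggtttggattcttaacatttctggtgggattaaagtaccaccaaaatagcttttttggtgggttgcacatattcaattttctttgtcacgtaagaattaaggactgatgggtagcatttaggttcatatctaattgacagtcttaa
The STAT5 letters were found in 1 of the 11 windows, at the most downstream Tgif1 start, against 8.3% of 32851 windows of all genes. CAGAC was found in 5 of the 11 windows, against 49.59% of all. These matches describe letters and are not evidence of binding. The Ski window held neither, which says only that these letters are not in it.

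Counted together, 1 of the 10 genes passed in Tregs with IL-2 at 90 min (Ski, higher), where 0.853% of all 15009 tested genes passed, and 2 passed with the replicate block (Ski and Tgfbr1; 1.83% of all). With IL-2-REH at 90 min, 0 of 10 passed (0.0933% of all). At 4 hr, 0 of 10 passed with IL-2 (2.27% of all) and 0 with IL-2-REH (0.313%), and with the block 1 passed in each (Smad3, lower; 6.92% and 3.03% of all). These zero counts come from edgeR. At an unadjusted p under 0.05 it had 5 of 10 for IL-2-REH at 90 min (11.4% of all genes), 3 for IL-2 at 4 hr (17.7%) and 1 for IL-2-REH at 4 hr (13.3%). DESeq2 called 1 in each of these 3 comparisons (Ski in the first and Smad3 in the others), beside 0.613%, 5.85% and 3.33% of all genes. With limma on log2(RPKM + 1) the calls were 0, 1 and 0, beside 0%, 2.54% and 0.239%. The 10 genes had a median log2 fold change of 0.81 for IL-2 and of 0.69 for IL-2-REH at 90 min, beside -0.062 and -0.047 over all tested genes. At 4 hr it was 0.03 and 0.07, beside -0.002 and 0.014. Without unstimulated replicate 1 the medians were 1.0 and 0.88 at 90 min, beside 0.032 and 0.035 over all genes, and 0.36 and 0.24 at 4 hr, beside 0.052 and 0.064.

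Without unstimulated replicate 1, the counts rose for these genes and for the transcriptome alike. At 90 min, 6 of 10 passed with IL-2 (Pmepa1, Ski, Skil, Tgfb1, Tgfbr1 and Tgif1, all higher; 12.9% of all genes) and 5 with IL-2-REH (the same genes without Tgfbr1; 12.1%). At 4 hr, 2 passed with IL-2 (Skil higher, Smad3 lower; 8.87%) and 3 with IL-2-REH (Pmepa1 and Tgif1 higher, Smad3 lower; 6.93%). With the block and without that library, Smad7 was added for each cytokine at 90 min (7 and 6 of 10; 26.9% and 25.4% of all genes). At 4 hr, Pmepa1, Ski, Tgfb1 and Tgif1 were added with IL-2 (6 of 10; 21% of all genes) and Skil and Tgfb1 with IL-2-REH (5 of 10; 16.7%). All 4 comparisons share the unstimulated libraries. Without unstimulated replicate 2 instead, 0 of 10 passed in each of the 4. Of 15442 genes, 46 and 0 passed at 90 min and 137 and 17 at 4 hr (IL-2 and IL-2-REH). Without unstimulated replicate 3 instead, it was again 0 of 10 in each. Of 15471 genes, 44 and 0 passed at 90 min and 72 and 2 at 4 hr.

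**Figure D2:**
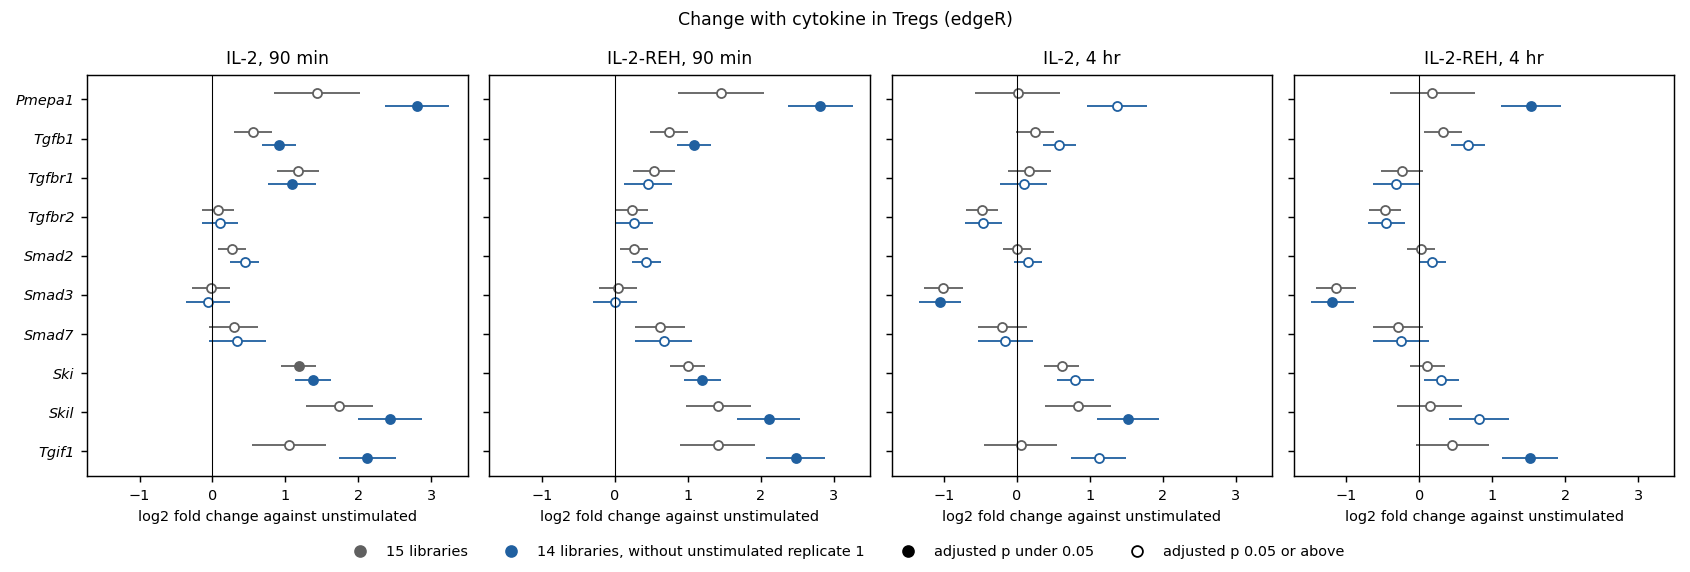
Log2 fold change against unstimulated Tregs (x axis, edgeR, bars show the SE) of the 10 genes for each cytokine and time. Gray points use 15 libraries, blue points use 14 without unstimulated replicate 1, and filled points have an adjusted p under 0.05. Pmepa1 moves from 1.43 to 2.80 for IL-2 at 90 min when that library is left out, and Smad3 lies near -1 at 4 hr either way.

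In the CD8+ libraries, 4 of 10 genes had a log2 ratio of RPKM + 1 above 1 after 90 min with IL-2 (Pmepa1, Ski, Skil and Tgif1; 2.81% of 10021 genes) and the same 4 with IL-2-REH (2.46%). Pmepa1 was chosen by this rise, so its place in both counts and its part in the medians below were fixed in advance. Skil went from 11.2 to 56.2 RPKM for IL-2 and 59.2 RPKM for IL-2-REH, log2 ratios of 2.23 and 2.30. For Ski, 20.1 RPKM became 64.8 and 52.1 RPKM (1.64 and 1.33). Tgif1 stood at 25.3 RPKM before and at 81.1 and 112 RPKM after (1.64 and 2.1). Tgfb1 stayed under that size, with 34.3 RPKM without cytokine and 61.2 and 48.7 RPKM at 90 min. At 4 hr, 1 gene was still past it with IL-2 (Pmepa1; 1.31% of all genes) and 0 with IL-2-REH (1.78%), where Skil lay at 1.0, just under it. The CD8+ log2 ratio at 90 min had a median of 0.751 for IL-2 and 0.657 for IL-2-REH over the 10 genes, and -0.035 and -0.122 over all genes.

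From 90 min to 4 hr, most of the 10 genes were lower in both cell types. In Tregs, Pmepa1 had a log2 fold change of -1.42 ± 0.59 with IL-2 (adjusted p = 0.256) and of -1.28 ± 0.59 with IL-2-REH (adjusted p = 0.336), and it was lower in all 3 same-numbered pairs of each. For Smad3 the log2 fold changes were -0.99 (adjusted p = 0.195) and -1.18 (adjusted p = 0.215), and for Ski -0.57 (adjusted p = 0.256) and -0.89 (adjusted p = 0.248). None of the 10 passed in edgeR with either cytokine, and neither did any other gene (0% and 0% of 15009). At an unadjusted p under 0.05 there were 5 of the 10 for IL-2 and 7 for IL-2-REH, beside 17% and 14.6% of all genes. DESeq2 called 2 of the 10 in each (Smad3 and Tgfbr1 with IL-2, Smad3 and Ski with IL-2-REH) beside 2.27% and 1.55% of all genes, and limma called 0 of the 10 in each. Without replicate 1 of every group, edgeR called Pmepa1 (-1.48, adjusted p = 0.0239, and -1.32, adjusted p = 0.0299) and Smad3 with both cytokines, and Ski, Skil and Tgfbr2 with IL-2-REH (2 and 5 of 10, beside 4.32% and 3.96% of all genes). For IL-2 and IL-2-REH the medians were -0.74 and -0.90 over the 10 genes, and 0.033 and 0.038 over all. In CD8+ T cells, Pmepa1, Ski, Skil and Tgif1 were lower by more than 1 on the log2 scale with IL-2 (4 of 10; 1.37% of all genes) and with IL-2-REH (4 of 10; 0.838%). For Pmepa1, which was chosen by its high CD8+ values at 90 min, the log2 ratio was -1.68 and -2.07.

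IL-2-REH was compared with IL-2 at the same dose and time. It is a partial agonist, built to bind the common γ chain of the IL-2 receptor less well, and the study asked how Tregs and CD8+ T cells answer it. In Tregs 0 of the 10 genes passed at 90 min (0.0133% of all genes) and 0 at 4 hr (0.0267%) in edgeR. At an unadjusted p under 0.05, edgeR had Tgfbr1 at 90 min and 0 of the 10 at 4 hr, beside 149 and 558 of all 15009 genes. DESeq2 and limma called none of the 10 at either time, beside 14 and 59 of 17788 genes with DESeq2 and 0 of 10473 with limma. The log2 difference of Pmepa1 was 0.02 ± 0.58 at 90 min and 0.17 ± 0.58 at 4 hr, SEs that leave room for a difference of either sign. The change of the difference from 90 min to 4 hr did not pass for any of the 10 genes or for any other (0% of 15009). Under an unadjusted p of 0.05 there were 0 of the 10 in edgeR, DESeq2 or limma. Over all genes these fits had 47 of 15009, 82 of 17788 and 27 of 10473.

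Tgfbr1, Ski, Skil and Tgif1 kept 1 direction in all 3 same-numbered Treg pairs at both times, without passing the test. The share of all genes that did so was not counted, so the shared direction is not a result particular to these genes. Tgfbr1 was lower with IL-2-REH, by a log2 difference of -0.63 ± 0.29 at 90 min (adjusted p = 1) and of -0.41 ± 0.29 at 4 hr (adjusted p = 1). Skil was lower, at -0.32 ± 0.44 and -0.69 ± 0.45, and Tgif1 was higher, at 0.36 ± 0.50 and 0.40 ± 0.50 (adjusted p = 1 for each). Ski was lower in all pairs of both times (smallest log2 ratio -0.08, largest -0.81). In the CD8+ pair, Tgif1 was higher with IL-2-REH too, by a log2 ratio of 0.46 at 90 min and of 1.12 at 4 hr (19.7 RPKM with IL-2, 43.9 RPKM with IL-2-REH). It was the 1 of 10 genes past 1 at 4 hr (0.549% of all genes were higher by as much), and 0 of 10 were past 1 in either direction at 90 min (0.868%). Pmepa1 was lower with IL-2-REH in CD8+ T cells, by -0.34 and -0.74.

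**Figure D3:**
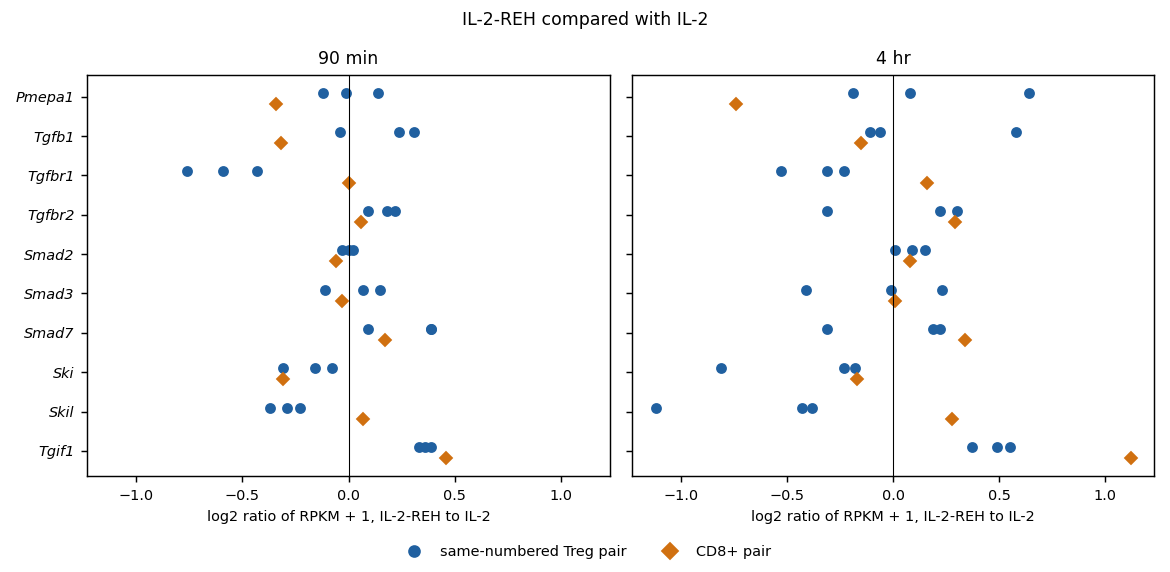
Log2 ratio of RPKM + 1 of IL-2-REH to IL-2 (x axis) for each gene at 90 min and 4 hr. Blue circles are the 3 same-numbered Treg pairs and orange diamonds the single CD8+ pair. Tgif1 lies to the right in every pair, and Tgfbr1 and Skil to the left in the Treg pairs, with the CD8+ pair at or to the right of about 0.

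Between cell types, 0 of the 10 genes had all 5 CD8+ libraries outside the range of the 15 Treg libraries (9.98% of 10457 genes did). Condition by condition, a rule chosen after the data were seen, Tgfb1, Ski, Skil and Tgif1 were below all 3 Treg libraries in each of the 5 conditions (14.2% of all genes), and Tgfbr2 was above them (7.77%). The mean log2 difference of CD8+ T cells from Tregs over the conditions was -1.29 for Skil, -1.14 for Tgif1, -1.06 for Tgfb1, -0.82 for Ski and 0.72 for Tgfbr2, on the log2(RPKM + 1) scale. Tgfbr1 was below in 4 conditions (-1.22). Smad2 and Smad7 were nearly level (0.08 and 0.01). The cell types came from different mouse lines and sorting steps, which cannot be told apart from cell type here.

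The wider pathway was followed with 56 other genes, of which 37 had a mean of at least 1 RPKM in Tregs and 33 in CD8+ T cells, and 55 were tested in Tregs. With IL-2 at 90 min, 2 were higher and 0 lower (0.853% of all genes passed). With IL-2 at 4 hr, 1 was higher and 2 were lower (2.27% of all), and with IL-2-REH 0 were called at 90 min (0.0933%) and 1, lower, at 4 hr (0.313%). In that comparison of 0, edgeR had 10 of the 55 at an unadjusted p under 0.05 (11.4% of all), DESeq2 called 2 (0.613% of all) and limma 0. With the replicate block these counts were 3 and 0 for IL-2 at 90 min, 4 and 5 for IL-2 at 4 hr, and 0 and 4 for IL-2-REH at 4 hr, beside 1.83%, 6.92% and 3.03% of all genes. Without unstimulated replicate 1, 10 were higher and 1 lower for IL-2 at 90 min, 10 and 4 for IL-2-REH, and 4 and 4, and 2 and 3, at 4 hr, beside 12.9%, 12.1%, 8.87% and 6.93% of all genes. Between the cytokines edgeR called 0 of the 55 at either time (0.0133% and 0.0267% of all genes). Under an unadjusted p of 0.05 it had 0 at 90 min and 3 at 4 hr, beside 149 and 558 of 15009 genes. DESeq2 and limma called 0, beside 14 and 59 of 17788 genes with DESeq2 and 0 of 10473 with limma. From 90 min to 4 hr edgeR called 0 with either cytokine (14 and 15 at an unadjusted p under 0.05, beside 17% and 14.6% of all), DESeq2 called 2 and 3 (2.27% and 1.55% of all), and limma 0. With the block 1 was called with IL-2, Itgb6, higher (0.386% of all).

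With all libraries and no block, the genes called belonged to 2 of the 5 role groups, ligand activation and targets. With the block, the receptor genes Acvr1 and Acvr1b (higher with IL-2 at 4 hr) and Tgfbr3 (lower with IL-2-REH at 4 hr) and the SMAD gene Smad5 (higher with IL-2 at 90 min) were among the calls, and without unstimulated replicate 1 receptors and regulators were too. The block also added the targets Id2, Klf10 and Tgfbi, lower with IL-2 at 4 hr, and Tgfbi, lower with IL-2-REH at 4 hr. In ligand activation it added Itgb6, higher with IL-2 at 4 hr, and Nrros, lower with IL-2-REH at 4 hr. Lrrc32, whose product GARP holds latent TGF-β on the Treg surface, was at 153, 83.4 and 61.8 RPKM in unstimulated Tregs and 366, 336 and 304 RPKM after 90 min with IL-2 (log2 fold change 1.85 ± 0.32, edgeR adjusted p = 0.012). It was at 208, 349.6 and 229 RPKM at 4 hr (1.41, adjusted p = 0.0344). It stayed at or below 0.754 RPKM in CD8+ T cells. Furin, the protease that cleaves the TGF-β precursor, went from 19.7, 15.1 and 13.2 to 38.6, 60.7 and 49.3 RPKM at 90 min with IL-2 (1.77 ± 0.36, adjusted p = 0.0341). With IL-2-REH neither gene was called with all libraries, with or without the block. Without unstimulated replicate 1, both were called with IL-2-REH at 90 min (12.1% of all genes were). At 4 hr, without that library, Lrrc32 was called with IL-2-REH and Furin with IL-2.

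Of the targets, Junb, an AP-1 subunit, fell at 4 hr. It was at 531, 550.4 and 737 RPKM without cytokine, 134, 243 and 253 RPKM with IL-2 (-1.46, adjusted p = 0.0335) and 141, 226 and 170.2 RPKM with IL-2-REH (-1.78, adjusted p = 0.0381). Itgae, the αE integrin known to be induced by TGF-β, fell with IL-2 from 16.1, 23.1 and 27.9 to 9.99, 4.17 and 4.42 RPKM (-1.76, adjusted p = 0.0324). With IL-2-REH at 4 hr it was at 16.5, 7.85 and 7.12 RPKM (-1.08, adjusted p = 0.224). In the CD8+ libraries Itgae was at 26.3 RPKM without cytokine, 10.8 RPKM for IL-2 and 28.1 RPKM for IL-2-REH at 4 hr. Each call made with all libraries on Lrrc32, Furin, Junb and Itgae was lost when only the 2 groups were fitted. Each was also lost without unstimulated replicate 2 or 3. Each held without replicate 1.

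Ldlrad4, the paralog of Pmepa1 with the same SMAD-binding role, was followed for comparison. In Tregs it was at 19.1, 16.3 and 13.99 RPKM without cytokine, 27.1, 26.04 and 24.9 RPKM for IL-2 and 26.9, 27.1 and 25.9 RPKM for IL-2-REH at 90 min. All 6 stimulated libraries were above the unstimulated ones, and unlike for Pmepa1 unstimulated replicate 1 was close to its group. The log2 fold change was 0.79 ± 0.20 (adjusted p = 0.109) and 0.82 ± 0.20 (adjusted p = 0.328) in edgeR, and without that replicate 1.01 (adjusted p = 0.00569) and 1.05 (adjusted p = 0.00504). In CD8+ T cells it went from 4.88 to 15.5 and 19.1 RPKM at 90 min and stood at 8.54 and 15.3 RPKM at 4 hr. Smad4, the shared partner SMAD, lay between 17.5 and 38.6 RPKM in Tregs and passed no Treg test (edgeR).

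Likeness to Pmepa1 was taken as Pearson's r of log2(RPKM + 1) and is a description, since the libraries share conditions and the offset of unstimulated replicate 1. Over the 15 Treg libraries the 5 most alike of 10472 genes were Chka (0.966), Fbxo34 (0.960), Tmem66 (0.956), Sh2d2a (0.948) and Cblb (0.945). Over all 20 libraries they were Dennd4a (0.914), Ubn1 (0.911), Spsb1 (0.903), Rsc1a1 (0.898) and Cblb (0.896), of 10456 genes. Among the other 9 members, Tgif1 was the most alike, with r of 0.903 in Tregs (rank 44) and 0.833 over 20 libraries (rank 37). Skil had 0.829 and 0.826, Tgfb1 had 0.857 and 0.665, and Ski had 0.756 and 0.806. Smad7 had 0.548 and 0.568. Tgfbr1, Tgfbr2, Smad2 and Smad3 lay between 0.083 and 0.429 in either set.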

How the data were processed

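Libraries of 15 Treg and 5 CD8+ samples were analysed, grouped by the sample titles. The authors aligned reads to mm10 (Bowtie2 2.2.6, TopHat2 2.1.1, SAMtools 0.1.8 and bedtools 2.25.0 are named in the submitters' processing notes), kept unique reads and deposited raw counts per RefSeq transcript. The authors also deposited RPKM, scaled to exon length and library size. Whether strand was used is not given in the sources used here. In GENCODE, no exon of the 10 genes overlaps one of another gene. The transcript with most reads over the 20 libraries stood for each symbol, of 31682 transcripts.

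Treg counts were tested with edgeR 4.0.16 in R 4.3.3 (TMM, filterByExpr, glmQLFit, all 15 libraries, 1 mean per group, adjusted p under 0.05 over 15009 genes). Same-numbered libraries of different groups deviated together from their group means in 30 of 30 pairs of libraries (r across genes 0.121 to 0.839, mean 0.538). The mean r of -0.257 for different numbers follows largely from centring each group on its own mean and adds no evidence. From the same-numbered r, the numbers, taken from the titles, were read as pairing the samples, though the main fit has no block. A blocked value is printed where it changes a call. CD8+ T cells have log2 ratios of RPKM + 1 (10021 genes averaging 1 RPKM or more), with no test, and are counted past 1. Alternatives were DESeq2 1.42.0, limma 3.58.1 on logged RPKM, the block, no filter, other transcripts, pseudocounts and thresholds, and leaving out libraries. The fits were tested on simulated data with independent libraries, no shared deviation by replicate number and no library standing apart. That test therefore does not cover these features of the real libraries.

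The members and gene lists were chosen with earlier results of these data known. Named genes are all 10 members, the pathway genes called in a Treg comparison with all libraries (with or without the block), Ldlrad4, Smad4 and the 5 genes most like Pmepa1 in each set of libraries.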

Additional observations from a re-analysis of the deposited data

Results flagged for a closer look

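In 3 cases all same-numbered Treg pairs moved one way between IL-2-REH and IL-2 while the CD8+ pair moved the other way. How many of all genes did so was not counted, so nothing particular to these genes follows from the 3 cases. The CD8+ side is 1 pair of libraries, and the difference between cell types was not tested. Skil at 90 min had a log2 ratio of RPKM + 1 of 0.07 in CD8+ T cells and of -0.23, -0.29 and -0.37 in the 3 Treg pairs. At 4 hr, Skil had 0.28 in CD8+ T cells and -0.38, -0.43 and -1.12 in Tregs. Tgfbr1 at 4 hr had 0.16 in CD8+ T cells and -0.31, -0.23 and -0.53 in Tregs.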

How the results depend on the processing

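Of the counts of these genes recomputed under another setting, 112 stayed within 1.5 times and 38 did not. Of the recomputed Treg fold changes, 411 kept direction and side of the threshold, 80 passed newly, 35 no longer passed and 23 turned sign. The cause was not tested. Leaving out libraries gave 0 to 6 genes for IL-2 and 0 to 6 for IL-2-REH at 90 min against unstimulated Tregs, 0 to 5 and 0 to 4 at 4 hr, and 0 to 2 (IL-2) and 0 to 5 (IL-2-REH) for 4 hr against 90 min. Of the 14477 to 15494 genes tested in those fits, 0 to 2509 and 0 to 2269 passed at 90 min. At 4 hr it was 3 to 1937 and 0 to 1545, and between times 0 to 625 and 0 to 574. With the replicate block the counts were 2 for IL-2 at 90 min and 1 for each cytokine at 4 hr (1.83%, 6.92% and 3.03% of all genes). The block changed no other count. With the block and without unstimulated replicate 1, a pairing added after the data were seen, they were 7 and 6 at 90 min and 6 and 5 at 4 hr, beside 26.9%, 25.4%, 21% and 16.7% of all genes. DESeq2 gave 3 and 1 at 90 min, 1 and 1 at 4 hr, and 2 and 2 between times. Of all 17788 genes it called 565 and 109, 1040 and 592, and 404 and 276. With limma there were 2 for IL-2 at 90 min and 1 for IL-2 at 4 hr, beside 108 and 266 of 10473 genes. Fitting only the groups compared gave 0 for IL-2 at 90 min, beside 31 of 13713 genes. In CD8+ T cells a threshold of 2 gave 2 for IL-2 at 90 min, 0 for IL-2 at 4 hr, 0 for IL-2-REH against IL-2 at 4 hr, and 0 and 1 between times. For IL-2-REH at 4 hr a pseudocount of 0.1, or centring on the median, gave 1. How many of all genes were past the threshold in these CD8+ settings was not counted. The rule by condition gave 5 genes between cell types.

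Without 1 library or replicate, the log2 fold change at 4 hr against unstimulated Tregs ran from -0.50 to 1.54 (IL-2) and from -0.55 to 1.75 (IL-2-REH) for Pmepa1, from -0.57 to 1.26 and from -0.14 to 1.66 for Tgif1, and with IL-2-REH from -0.02 to 0.30 for Ski, from -0.46 to 0.89 for Skil and from -0.00 to 0.83 for Tgfb1. For Pmepa1, IL-2-REH against IL-2 ran from -0.05 to 0.05 at 90 min and from -0.14 to 0.37 at 4 hr, and limma gave 0.00 at 90 min. The block gave -0.03 for Pmepa1 with IL-2 at 4 hr, and the longest transcript -0.03 for Tgif1. Of the CD8+ ratios, 86 moved by less than the counting interval, 34 by more, and none that was past 1 turned sign.

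Pmepa1 held 580 reads or more in every library. CD8+ T cells have no replicates, and counting intervals there cover counting error only.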
